A study of Oryza sativa Indica Group with 16 samples.

Results

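The stretch of rice chromosome 1 around HKT1;5 was examined through 131 genes, those that start between 10.0 and 13.5 Mb in the gene table of assembly ASM3414082v1 and have at least 1 array probe set that the platform annotation gives to that gene alone. The table lists 282 genes there, 218 of them protein-coding, and the whole array has probe sets of their own for 17905 genes. HKT1;5 was left out by the rule, and so was the lectin gene salT, which starts beyond the window. The 131 genes have 161 probe sets, of which 136, from 118 genes, were bright enough to be tested. Of the genes, 64 lie before HKT1;5 in gene order and 67 after it. The array files carry no genome build. Start positions in the gene table chose the members, and otherwise the table was used for names and gene order only.

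Saltol is a major locus on chromosome 1 for the balance of sodium and potassium in salt-stressed rice seedlings. HKT1;5, also called SKC1, is the sodium transporter best known from this stretch: it takes sodium out of the xylem sap and so limits how much reaches the leaves. Recombinant inbred lines keep blocks of each parent's chromosomes, so a pool of tolerant lines and a pool of sensitive lines can differ in which parental block they carry. Only 19 of the 131 genes have a name in the gene table, and 112 have a locus number alone, for which no function is given here.

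The samples were rice seedlings (Oryza sativa, Indica Group) 10 days after germination, without salt (control) or with 150 mM NaCl for 24 h (salt). They were of the parents CSR27, which tolerates salt, and MI48, which is sensitive to it, and of pooled recombinant inbred lines from their cross, tolerant lines in one bulk and sensitive lines in the other. Each of these 4 genotypes was measured in both conditions on 2 arrays, 16 arrays in 8 groups. The sources used here do not give how many lines a bulk held, which parental alleles it carried on chromosome 1, which plant part was taken or whether the 2 arrays of a group came from separate plants. A p-value therefore measures the spread between arrays, and 2 arrays per group limit the precision of every value.

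The comparisons below use the 8 bulk arrays, which were alike (rank correlations of 0.9 to 0.928). The 2 sensitive control arrays differed more from each other (median absolute log2 difference 0.382) than the arrays of the other groups did (0.193 to 0.224). Each probe set's level is given as a scaled signal, an intensity on a linear scale after each array was brought to the same median. Bulk differences and salt responses are on the log2(signal + 3.86) scale, where 3.86 is the pseudocount, with standard errors (SE) from limma. Limma took a single spread per probe set from the 8 bulk arrays together, also where only 2 groups were compared. A probe set was called when its Benjamini-Hochberg adjusted p over all 32977 tested probe sets was under 0.05. In these pooled tissues, fewer cells that make a transcript and less of it per cell cannot be told apart. Leaf photosynthesis transcripts were bright in every bulk group (summed scaled signal of 12 probe sets 35600 to 62700), and seed endosperm transcripts were also present.

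Averaged over control and salt, 11 of the 136 member probe sets, from 11 genes, differed between the bulks: 8 were higher in the tolerant bulk and 3 lower. That is 8.09% of the members, where 4.72% of all probe sets tested were called. Among probe sets of 1 gene outside the region the share was 5.7%, and on the rest of chromosome 1 it was 5.12%. By direction, 3.44% of all probe sets were higher and 1.28% lower. In control 5 members were called (3.68%, against 1.46% of all), 4 higher and 1 lower, where 1.19% of all were higher and 0.27% lower. After salt 2 members were called, both lower (1.47%, against 1.28% of all, 0.719% higher and 0.564% lower). After quantile normalization the calls were 4 higher and 5 lower averaged, 4 higher and 1 lower in control and 3 lower in salt, so the balance of higher and lower calls depends on the scaling. The members' shares were then 6.62% averaged, 3.68% in control and 2.21% in salt, where 5.89%, 2.19% and 2.8% of all probe sets and 7.14%, 2.54% and 3.27% of those of 1 gene outside the region were called. With that scaling the averaged share lay below that of other single-gene probe sets and the salt share below both backgrounds. Under median scaling too the salt share is close to the background, and all of these shares rest on few probe sets. The median difference of the members was 0.15 averaged over the conditions, 0.16 in control and 0.19 in salt, where the medians of all probe sets tested were 0.09, 0.09 and 0.10. Probe sets of 1 gene outside the region had 0.12, 0.11 and 0.13. After quantile normalization the members had 0.06, 0.06 and 0.10, and probe sets of 1 gene outside the region 0.03, 0.01 and 0.04. The members' median size of the averaged difference, regardless of sign, was 0.26. It was 0.23 over all probe sets and 0.21 over those of 1 gene outside the region. After quantile normalization these were 0.203, 0.206 and 0.179.

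**Figure D1:**
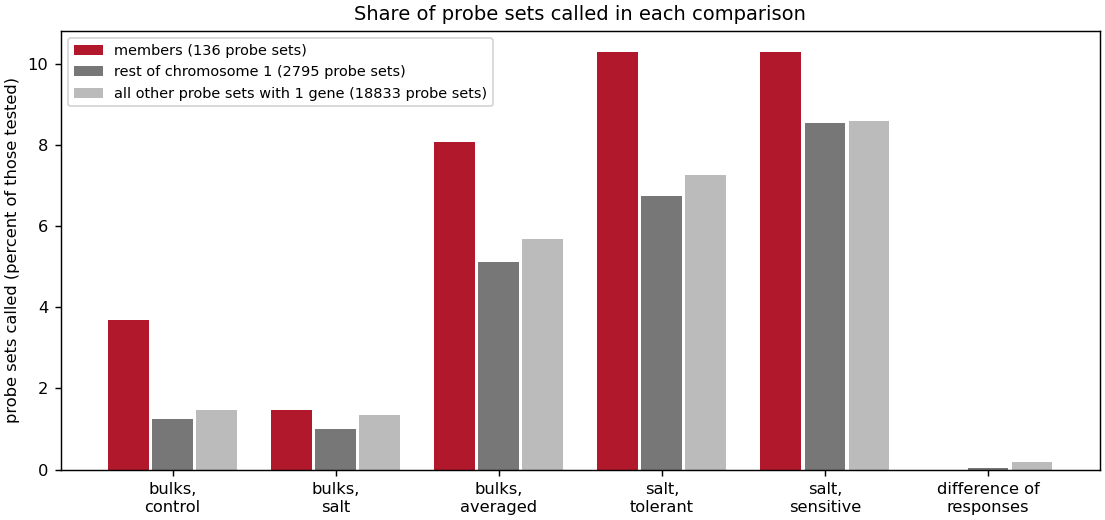
Share of tested probe sets called (adjusted p under 0.05, percent, bars from 0) in 6 comparisons, for the 136 members, the 2795 probe sets of the rest of chromosome 1 and the 18833 probe sets of 1 gene outside the region. The member bar stands at 3.68% against 1.25% and 1.48% for the bulks in control, and at 0% for the difference of the responses.

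The genes called as higher in the tolerant bulk lay before HKT1;5 and the genes called as lower lay after it. All 8 higher genes stand 34 to 110 genes before HKT1;5 in the gene table, and the 3 lower genes stand 9, 110 and 137 genes after it. In control 4 were higher before it and 1 was lower after it. In salt the 2 called members were lower and after it, and none was called as higher. In both conditions, leaving out either sensitive bulk control array put calls of the same direction on both sides. Averaged over the conditions, the medians of all tested members, called or not, were 0.23 for the 63 probe sets before HKT1;5 and 0.07 for the 73 after it. All probe sets tested had 0.09, and those of 1 gene outside the region 0.12. After quantile normalization the averaged calls were 4 higher before and 5 lower after, with medians of 0.16 and -0.02. The medians before and after under median scaling were 0.25 and 0.06 in control, where all probe sets tested had 0.09. In salt they were closer, 0.24 and 0.18, where all probe sets tested had 0.10. The arrangement of the calls around HKT1;5 was seen in the data and was not tested. It was not kept in full with every array left out: without sensitive bulk control replicate 1, 19 members before and 16 after HKT1;5 were called as higher, and without sensitive bulk control replicate 2 there was 1 higher gene after it and 1 lower gene before it. Without sensitive bulk salt replicate 1, 1 of 3 higher probe sets lay after it.

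**Figure D2:**
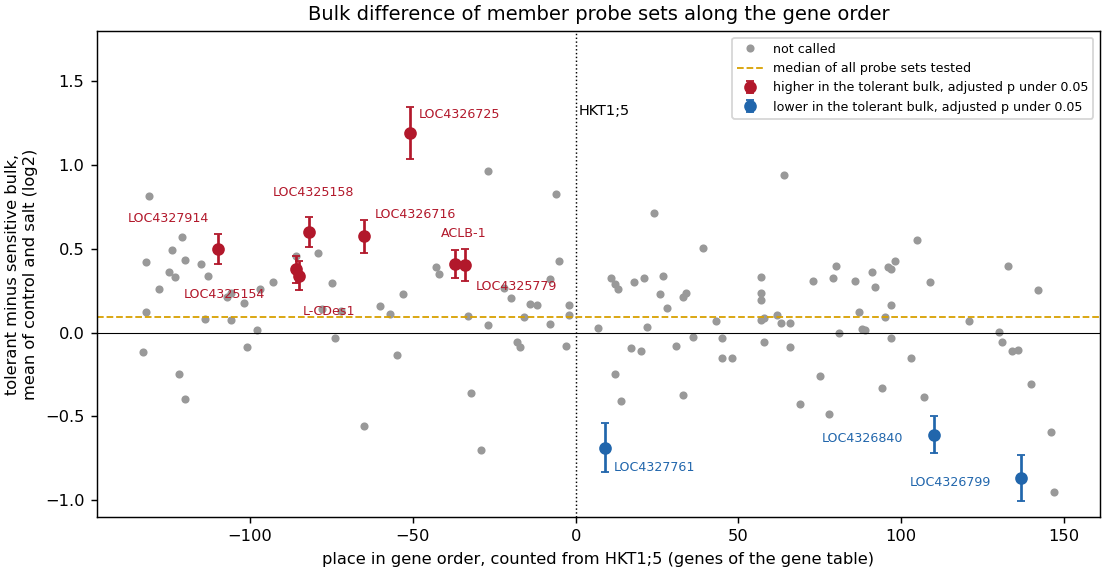
Difference between the bulks, averaged over control and salt (y axis, log2, tolerant minus sensitive), of the 136 tested member probe sets along the gene order (x axis, genes counted from HKT1;5 at 0). Red and blue points with SE bars are the 8 higher and 3 lower called probe sets, grey points were not called, and the dashed line is the median of all probe sets tested (0.09).

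LOC4326725, 51 genes before HKT1;5, had the largest called difference between the bulks. It had scaled signals of 107 and 95.4 in the tolerant control arrays, 81.2 and 80.3 in the tolerant salt arrays, 24.9 and 24.97 in the sensitive control arrays and 51.6 and 58.9 in the sensitive salt arrays. The tolerant arrays all lay above the sensitive arrays, and the sensitive control arrays were the lowest. It was higher in the tolerant bulk by 1.87 ± 0.22 in control (SE, n = 2 and 2 arrays, limma adjusted p = 0.0016), 3.65-fold on this scale, and by 1.19 ± 0.16 averaged over both conditions (adjusted p = 0.0022). In salt the difference was 0.52 ± 0.22 (adjusted p = 0.3), and in the sensitive bulk the gene rose with salt by 1.04 (adjusted p = 0.021), a call lost without tolerant control replicate 1 or either sensitive salt array (adjusted p up to 0.16). The calls in control and averaged were kept in all 8 fits that left out 1 array.

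LOC4325158, 82 genes before HKT1;5, had scaled signals of 894 and 873 in the tolerant control arrays, 521 and 499 in the tolerant salt arrays, 485 and 482 in the sensitive control arrays and 389 and 415 in the sensitive salt arrays. It was highest in the tolerant control, and its sensitive control arrays lay just under its tolerant salt arrays. The difference was 0.86 ± 0.13 in control (limma adjusted p = 0.0066), lost as a call without either tolerant control array, and 0.60 ± 0.09 averaged (adjusted p = 0.0043), called without any 1 array. LOC4326716 showed 2539 and 3105 in the tolerant control arrays, 1709 and 2012 in the tolerant salt arrays, 1574 and 1431 in the sensitive control arrays and 1531 and 1591 in the sensitive salt arrays. Its tolerant control arrays stood above all others, and the groups in salt did not overlap. It was higher in the tolerant bulk by 0.90 ± 0.14 in control (adjusted p = 0.0093) and by 0.57 ± 0.10 averaged, but this comes from a probe set with the suffix _s_at, which marks probes shared by several transcripts. The other probe set of the same gene had -0.56 averaged, the opposite sign, and was not called. The averaged call was lost without replicate 2 of the tolerant control or salt arrays and without either sensitive salt array, and the call in control without tolerant control replicate 2 (adjusted p up to 0.065 averaged). Both LOC4325158 and LOC4326716 fell with salt in the tolerant bulk, by 0.79 and 0.60; these calls were lost without either tolerant control array or tolerant salt replicate 2 (adjusted p up to 0.076 and 0.27), and that of LOC4326716 also without tolerant salt replicate 1 or either sensitive salt array.

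LOC4327914 had nearly the same level in both conditions, with scaled signals of 626 and 629 in the tolerant control arrays, 616 and 626 in the tolerant salt arrays, 437 and 428 in the sensitive control arrays and 446 and 453 in the sensitive salt arrays. All tolerant arrays were above all sensitive arrays, and the control and salt arrays of each bulk lay close together. The averaged difference was 0.50 ± 0.09 (n = 4 and 4 arrays, limma adjusted p = 0.012), a 1.41-fold higher level. LOC4325154 and L-CDes1 (LOC4325155), an L-cysteine desulfhydrase that releases sulfide from cysteine, are next to each other in gene order, and LOC4325158 is 3 genes on from L-CDes1. L-CDes1 had 1097 and 1016 in the tolerant control arrays, 1005 and 1027 in the tolerant salt arrays, 859.9 and 847 in the sensitive control arrays and 821 and 745 in the sensitive salt arrays. Its tolerant and sensitive arrays did not overlap, and the averaged difference was 0.34 ± 0.09 (adjusted p = 0.04996, just under the threshold). LOC4325154 had 1515 and 1496 in the tolerant control arrays, 1325 and 1460.5 in the tolerant salt arrays, 1049 and 1101 in the sensitive control arrays and 1143 and 1164 in the sensitive salt arrays, again with no overlap between the bulks. It was higher by 0.38 ± 0.08 (adjusted p = 0.029) on a probe set with the suffix _s_at, and its other probe set had 0.46 without passing.

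ACLB-1 (LOC4325777), a subunit of ATP-citrate lyase, which makes cytosolic acetyl-CoA, had scaled signals of 2254 and 2560.2 in the tolerant control arrays, 2098 and 2005 in the tolerant salt arrays, 1716 and 1819 in the sensitive control arrays and 1579.9 and 1577 in the sensitive salt arrays. The tolerant arrays lay above the sensitive arrays of either condition. The averaged difference was 0.41 ± 0.08 (limma adjusted p = 0.021). LOC4325779, 3 genes further on, had 881 and 845 in the tolerant control arrays, 651 and 667 in the tolerant salt arrays, 672 and 614 in the sensitive control arrays and 545 and 465 in the sensitive salt arrays. It differed by 0.41 ± 0.09 (adjusted p = 0.038), and here tolerant salt and sensitive control arrays overlapped. After quantile normalization ACLB-1 (0.27, adjusted p = 0.051), LOC4325779 (0.28, 0.063), LOC4325154 (0.25, 0.11) and L-CDes1 (0.21, 0.15) were no longer called. The calls of LOC4327914, LOC4325779, LOC4325154 and L-CDes1 stood without either sensitive control array and were lost without any other single array (highest adjusted p 0.083, 0.18, 0.13 and 0.22). ACLB-1 was also kept without tolerant control replicate 1 (highest adjusted p 0.11).

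OsGER4 (LOC4327911), a germin-like protein (a family of cell wall glycoproteins), was called for a bulk difference in control alone. Its scaled signals were 1954 and 1809.9 in the tolerant control arrays, 1281 and 846 in the tolerant salt arrays, 1145 and 869 in the sensitive control arrays and 1177 and 1057 in the sensitive salt arrays. The tolerant control arrays were the highest, and the other groups overlapped. The difference in control was 0.91 ± 0.20 (limma adjusted p = 0.0499), and with salt the gene fell by 0.85 in the tolerant bulk (adjusted p = 0.031), where quantile normalization gave -0.56 (adjusted p = 0.095). That call was lost without either tolerant control array, tolerant salt replicate 2 or either sensitive salt array (adjusted p up to 0.25). The sensitive bulk had a response of 0.16 ± 0.20. The call in control was lost without either tolerant control array, sensitive control replicate 2 or either sensitive salt array (adjusted p from 0.012 to 0.27 over the 8 fits).

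The 3 genes after HKT1;5 that were lower in the tolerant bulk also fell with salt in both bulks. LOC4326799, 137 genes after HKT1;5, had scaled signals of 198 and 206 in the tolerant control arrays, 88.6 and 85.2 in the tolerant salt arrays, 268 and 392 in the sensitive control arrays and 195 and 179 in the sensitive salt arrays. The tolerant salt arrays were the lowest and the sensitive control arrays spread the most. It was lower by 0.87 ± 0.14 averaged (limma adjusted p = 0.0062), a call kept in all 8 fits without 1 array, and by 1.07 ± 0.19 in salt (adjusted p = 0.028). LOC4326840, 110 genes after HKT1;5, had 771 and 779 in the tolerant control arrays, 164 and 151 in the tolerant salt arrays, 692 and 909 in the sensitive control arrays and 364 and 362 in the sensitive salt arrays. Its controls overlapped between the bulks, and after salt both tolerant arrays lay well under both sensitive arrays. The difference in salt was -1.19 ± 0.16 (adjusted p = 0.0063) and in control -0.03 ± 0.16 (adjusted p = 0.95). The calls of both genes for the bulk difference in salt were lost without any 1 of the 4 salt arrays. Almost no probe set of the whole array was called for that comparison in those fits, so the loss is not particular to these genes. The call of LOC4326799 was also lost without either tolerant control array. Over the 8 fits the difference in salt ran from -1.25 to -1.13 for LOC4326840 and from -1.13 to -1.01 for LOC4326799.

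LOC4327761, 9 genes after HKT1;5 and among its nearest measured neighbours, had scaled signals of 289.5 and 276 in the tolerant control arrays, 75.6 and 71.3 in the tolerant salt arrays, 663 and 491 in the sensitive control arrays and 80.8 and 114 in the sensitive salt arrays. The bulks were apart in control, where both sensitive arrays were higher, and close to each other after salt. The difference was -1.003 ± 0.21 in control (limma adjusted p = 0.042) and -0.37 ± 0.21 in salt (adjusted p = 0.44). The call in control stood without either sensitive control array and was lost without any other (adjusted p from 0.011 to 0.37 over the 8 fits). Its averaged difference was -0.69 ± 0.15 (adjusted p = 0.026), and that of LOC4326840 was -0.61 ± 0.11 (adjusted p = 0.013); each of these calls stood in 3 of the 8 fits, those without either sensitive control array and, for LOC4327761, sensitive salt replicate 1 or, for LOC4326840, tolerant salt replicate 1 (adjusted p up to 0.13 and 0.08).

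**Figure D3:**
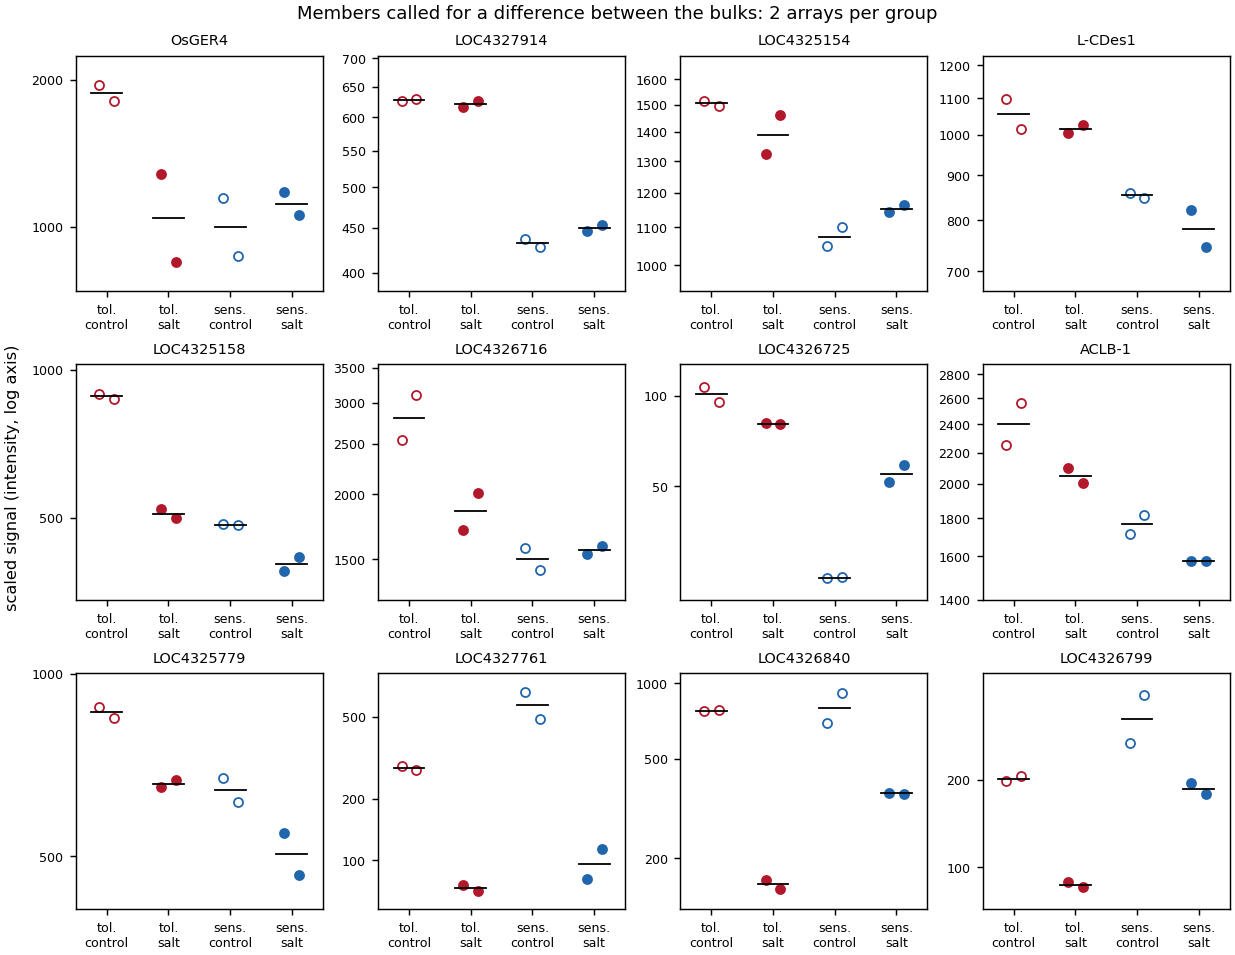
Scaled signal (y axis, intensity, log scale) of the 12 member genes called for a difference between the bulks in control, in salt or averaged. Points are single arrays, open without and filled with salt, red for the tolerant and blue for the sensitive bulk, and lines are geometric means of 2 arrays; in the panel of LOC4327914 all tolerant arrays lie above all sensitive arrays.

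The counts in the bulk differences depend on single arrays, over the whole array as in the members. The averaged count of 11 became 39 when replicate 1 of the sensitive control was left out and 17 when replicate 2 was, that is 28.9% and 12.9% of the members, where 18.9% and 9.07% of all probe sets and 24.7% and 11.4% of those of 1 gene outside the region were called. The count fell to 5 without replicate 1 of any of the other 3 groups and to 3 without replicate 2 of any of them, where 1.25% to 1.61% of all probe sets were called. In control the count of 5 became 25 and 10 without the sensitive control arrays (9.71% and 4.38% of all), 2 and 1 without the tolerant control arrays, and 3 without either sensitive salt array (0.337% to 0.858% of all). In salt the count of 2 became 14 without either sensitive control array (7.46% and 7.53% of all), 1 without either tolerant control array and 0 without any 1 of the 4 salt arrays (at most 0.525% of all). Seed endosperm transcripts moved with the control comparison. Of 20 tested probe sets 8 were higher and 0 lower in the tolerant bulk (6 and 0 averaged over the conditions), and the summed scaled signal of all 22 was 6300 to 7110 in the tolerant control against 769 to 889 in the sensitive control, 1120 to 1130 in the tolerant salt and 1900 to 2060 in the sensitive salt arrays. None of the 22 was listed at 0 on any of these arrays, and their part in the differences was not tested.

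With salt, 14 member probe sets from 13 genes were called in the tolerant bulk, 1 higher and 13 lower, and 14 from 13 genes in the sensitive bulk, 3 higher and 11 lower. These are 10.3% of the members in each bulk, where 5.41% and 6.53% of all probe sets tested were called and 7.28% and 8.61% of probe sets of 1 gene outside the region. Of all probe sets, 0.986% were higher and 4.43% lower with salt in the tolerant bulk, and 1.75% higher and 4.78% lower in the sensitive bulk. After quantile normalization the counts were 2 higher and 9 lower in the tolerant bulk, and 7 higher and 10 lower in the sensitive bulk. The whole array shifted the same way: 2.26% of all probe sets were then higher and 2.74% lower in the tolerant bulk, and 3.31% higher and 3.17% lower in the sensitive bulk. The members' shares were 8.09% and 12.5%, where single-gene probe sets outside the region had 6.66% and 8.38%. The median response of the members was -0.19 for the tolerant bulk and -0.16 for the sensitive one, where all probe sets tested had -0.14 and -0.15 and those of 1 gene outside the region -0.18 and -0.21; after quantile normalization the members had -0.0027 and -0.012. By gene order the sensitive bulk's median was -0.13 for members before HKT1;5 and -0.35 for those after it, and the tolerant bulk's was -0.19 on both sides; after quantile normalization these were 0.07 and -0.14, and -0.03 and 0.0027. The 2 responses share no array, but the fit took a single spread per probe set from all 8 arrays, so their calls are not independent. Of the 13 genes in each list, 8 were in both (61.5% of each list), and 7 of these fell while LOC4323901 rose. In probe sets, 8 of 14 in each list were shared (57.1%), where 51.9% of the tolerant and 43.1% of the sensitive list were shared over all probe sets tested, and 52.6% and 44.5% over those of 1 gene outside the region. After quantile normalization the members shared 54.5% and 35.3% of their lists, against 53.2% and 41.1% over all probe sets. In the tolerant bulk the count of 14 became 29 without either sensitive control array (13.6% and 13.8% of all probe sets), 9 without either sensitive salt array, 4 without either tolerant control array, and 6 and 4 without replicates 1 and 2 of the tolerant salt (1.17% to 3.49% of all). In the sensitive bulk it became 39 without sensitive control replicate 2 (22.4% of all, and 29.8% of single-gene probe sets outside the region), 11 without replicate 1 (6.85%), 3 without either sensitive salt array, 8 and 9 without the tolerant control arrays and 7 without either tolerant salt array (1.11% to 4.08% of all). Seed endosperm transcripts moved here as well: of 20 tested probe sets, 8 fell in the tolerant bulk and 5 rose in the sensitive bulk, over the summed signals given above. Of 11 tested leaf photosynthesis probe sets 4 fell in the tolerant bulk and none passed in the sensitive bulk. Their part in the members' responses was not tested.

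LOC4327002, 75 genes after HKT1;5, fell most in both bulks. It had scaled signals of 545 and 490.5 in the tolerant control arrays, 17.5 and 32.2 in the tolerant salt arrays, 594 and 389.6 in the sensitive control arrays and 35.8 and 41.9 in the sensitive salt arrays. Every salt array lay far under every control array, and the bulks overlapped in control. It fell by 4.23 ± 0.27 in the tolerant bulk (SE, n = 2 and 2 arrays, limma adjusted p = 1.9e-05), 18.8-fold on this scale, and by 3.51 ± 0.27 in the sensitive bulk (adjusted p = 6.8e-05), 11.4-fold. LOC4327001, next but one to it in the gene table, had 275 and 329 in the tolerant control arrays, 206 and 213 in the tolerant salt arrays, 374 and 213 in the sensitive control arrays and 152 and 136 in the sensitive salt arrays. It fell by 0.95 ± 0.24 in the sensitive bulk (adjusted p = 0.038), where its control arrays were far apart, and had -0.52 ± 0.24 in the tolerant bulk (adjusted p = 0.27). The call stood in 1 of 8 fits, the one without sensitive control replicate 2.

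LOC4327761, whose signals are given above, fell by 1.89 ± 0.21 in the tolerant bulk (limma adjusted p = 0.0006) and by 2.52 ± 0.21 in the sensitive bulk (adjusted p = 8.8e-05). LOC4326840 fell by 2.27 ± 0.16 and 1.12 ± 0.16 (adjusted p = 2.4e-05 and 0.0026). The falls of LOC4327002, LOC4327761 and LOC4326840 were called in both bulks in all 8 fits without 1 array. LOC4326799 fell by 1.18 ± 0.19 and 0.78 ± 0.19 (adjusted p = 0.0062 and 0.039), and in the sensitive bulk it was not called after quantile normalization (-0.55, adjusted p = 0.19). Its call in the tolerant bulk was lost without any 1 tolerant array, and that in the sensitive bulk without any but the sensitive control arrays (adjusted p up to 0.086 and 0.24).

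LOC4326722, 55 genes before HKT1;5, had scaled signals of 142 and 129.6 in the tolerant control arrays, 44.8 and 46.6 in the tolerant salt arrays, 172 and 111 in the sensitive control arrays and 62.1 and 48.7 in the sensitive salt arrays. Salt arrays lay under control arrays in both bulks. It fell by 1.495 ± 0.24 and 1.27 ± 0.24 (limma adjusted p = 0.0058 in the tolerant and 0.013 in the sensitive bulk). The first call was lost without any 1 tolerant array and the second without either sensitive salt array (adjusted p up to 0.07 and 0.13). LOC4323901 was the only member called as rising in both bulks. It had 2.27 and 1.89 in the tolerant control arrays, 39.6 and 22.6 in the tolerant salt arrays, 1.97 and 3.46 in the sensitive control arrays and 37.9 and 24.9 in the sensitive salt arrays, so its controls were under the pseudocount of 3.86 and its fold is understated. It rose by 2.51 ± 0.57 and 2.41 ± 0.57 (adjusted p = 0.029 and 0.032), on a probe set with the suffix _s_at. Its control arrays also lay under the scaled signal of 17.7 needed for testing, and its salt arrays above it. The probe set was thus tested only through its salt arrays, so a salt call on it could hardly be anything but a rise. The call in the tolerant bulk stood without either sensitive control array and that in the sensitive bulk without sensitive control replicate 2 or either tolerant control array; all other left-out arrays ended them (adjusted p up to 0.26 and 0.22).

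Other members were called in 1 bulk. LOC4327292 had scaled signals of 1126 and 1193 in the tolerant control arrays, 453 and 475 in the tolerant salt arrays, 1254 and 681 in the sensitive control arrays and 646 and 656 in the sensitive salt arrays, and fell by 1.31 ± 0.22 in the tolerant bulk (limma adjusted p = 0.0075). Its sensitive control arrays were far apart, and the sensitive response was -0.50 ± 0.22 (adjusted p = 0.21). LOC4323904 fell there by 0.54 and, as given above, LOC4325158, LOC4326716 and OsGER4 fell too. In the sensitive bulk LOC4325791 rose by 0.85 ± 0.20 (adjusted p = 0.035), with scaled signals of 3385 and 4588 in the tolerant control arrays, 2769 and 3498 in the tolerant salt arrays, 1852 and 2772 in the sensitive control arrays and 3866 and 4306 in the sensitive salt arrays. Its sensitive control replicate 1 was the lowest of the 8, and the tolerant groups overlapped. LOC4327285, on a probe set with the suffix _s_at, had 643 and 631 in the tolerant control arrays, 384 and 367 in the tolerant salt arrays, 711 and 416 in the sensitive control arrays and 272 and 286 in the sensitive salt arrays, and its sensitive salt arrays were the lowest. It fell by 0.96 ± 0.21 in the sensitive bulk (adjusted p = 0.024), and LOC4323912 fell there by 1.65. The calls of LOC4323904 and LOC4327285 stood without either sensitive control array alone, and that of LOC4325791 without sensitive control replicate 2 or either tolerant control array. That of LOC4327292 was lost without any 1 tolerant array (highest adjusted p for the 4 genes 0.25, 0.14, 0.23 and 0.085). A call in 1 bulk does not show that the responses differ.

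**Figure D4:**
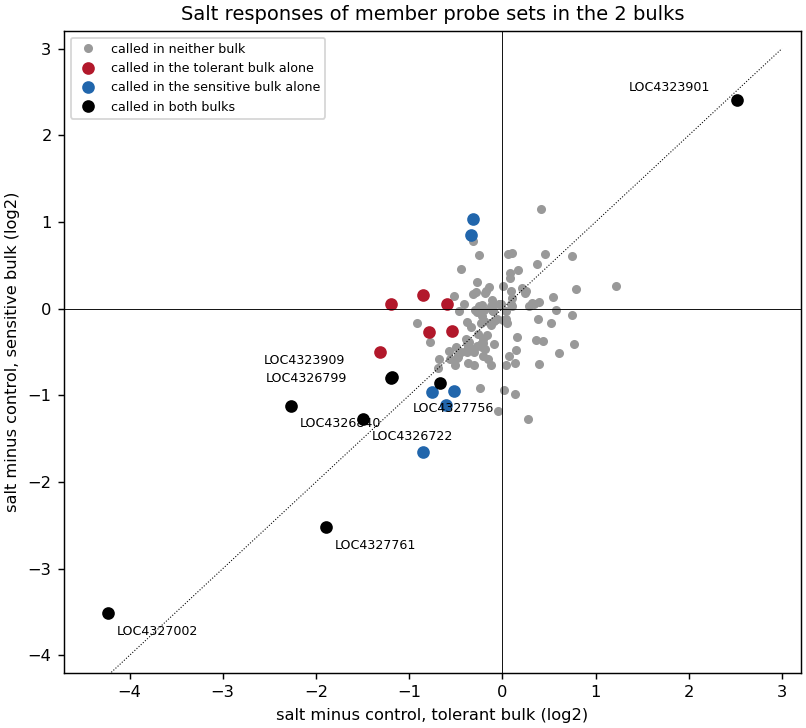
Salt response (salt minus control, log2) of the 136 tested member probe sets in the tolerant (x axis) and the sensitive bulk (y axis). Black points were called in both bulks, red in the tolerant and blue in the sensitive bulk alone, and the dotted line marks equal responses; LOC4327002 lies at -4.23 and -3.51, and LOC4323901 at 2.51 and 2.41.

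No member was called for a difference between the salt responses of the bulks (limma, 0 of 136, where 0.173% of all probe sets tested were called). At an unadjusted p under 0.05 there were 15 members, 11% of those tested, against 6.87% of all probe sets. LOC4326840 had the smallest adjusted p (0.12): the tolerant minus the sensitive response was -1.15 ± 0.22. LOC4326725, with a response of -0.31 in the tolerant bulk (adjusted p = 0.51), had -1.35 ± 0.31 (adjusted p = 0.25), and LOC4325791 had -1.19 ± 0.29 (adjusted p = 0.3). With sensitive bulk control replicate 1 or 2 left out, 2 members were called (1.48% and 1.52%, against 0.65% and 0.872% of all probe sets). Across the 136 members the responses of the bulks had the same sign in 91 (66.9%), against 66.7% of all probe sets tested, with Pearson r 0.665 and Spearman rho 0.427. The differences between the bulks in control and in salt had the same sign in 88 (64.7%), against 62.3% of all, with r 0.277 and rho 0.292. Probe sets of 1 gene outside the region had 72.2% for the responses and 66% for the bulk differences. Their r and rho were 0.488 and 0.459 for the responses, and 0.261 and 0.308 for the bulk differences. Over all probe sets tested r and rho were 0.363 and 0.362 for the responses, and 0.21 and 0.247 for the bulk differences. These are descriptions across probe sets of the same 8 arrays, and probe sets are not independent replicates.

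**Figure D5:**
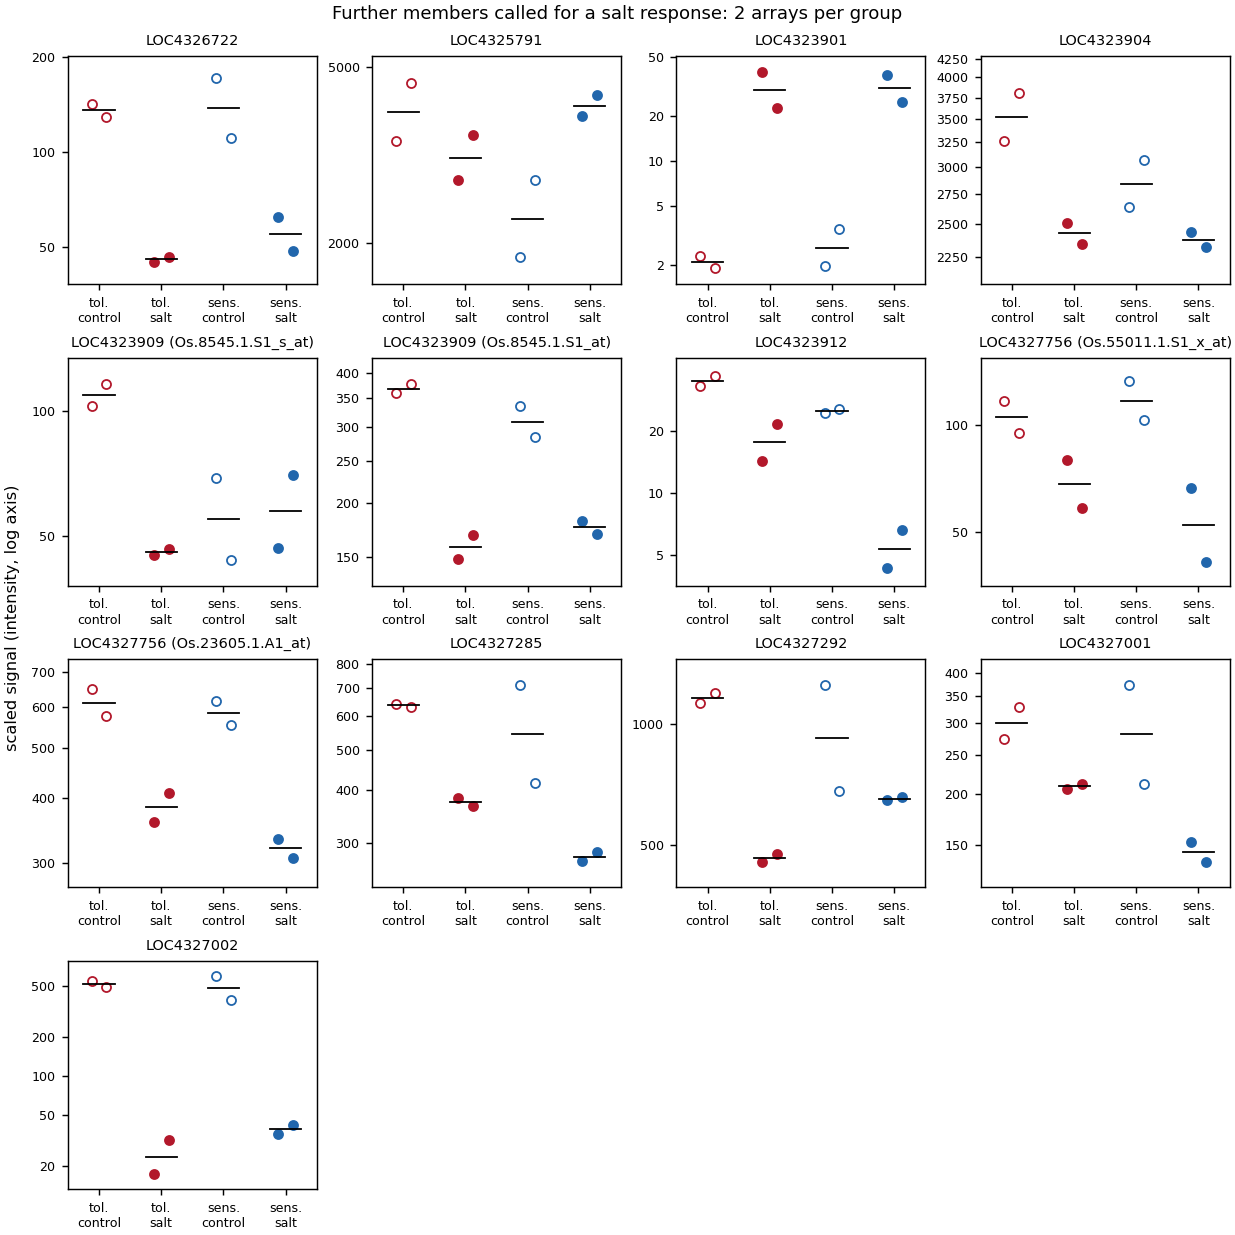
Scaled signal (y axis, intensity, log scale) of the 11 further member genes called for a salt response, LOC4323909 and LOC4327756 with 2 probe sets each. Points are single arrays, open without and filled with salt, red for the tolerant and blue for the sensitive bulk, and lines are geometric means; for LOC4327002 all salt arrays lie far under all control arrays.

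Among the measured genes next to HKT1;5, 3 of the 5 nearest before it and 1 of the 5 nearest after it fell with salt in at least 1 bulk. Of all probe sets tested, 4.43% were called lower with salt in the tolerant bulk and 4.78% in the sensitive bulk. For probe sets of 1 gene outside the region the shares were 5.97% and 6.57%. These shares are per probe set and bulk, unlike a count of genes called in either bulk, and that count rests on few genes. None of the 5 before HKT1;5 had a called difference between the bulks. LOC4327756, the nearest, is 2 places before HKT1;5 and had scaled signals of 649.5 and 576 in the tolerant control arrays, 360.4 and 409.8 in the tolerant salt arrays, 615 and 554 in the sensitive control arrays and 334 and 307 in the sensitive salt arrays on its brighter probe set. Salt arrays lay under control arrays in both bulks, and the bulks overlapped in control. It fell by 0.67 ± 0.14 in the tolerant bulk (limma adjusted p = 0.023) and by 0.86 ± 0.14 in the sensitive bulk (adjusted p = 0.007); the dimmer probe set had -0.60 (adjusted p = 0.26) and -1.11 (adjusted p = 0.037), the latter called in 1 of 8 fits without 1 array, that without sensitive control replicate 2 (adjusted p up to 0.27). After quantile normalization the tolerant response was -0.45 (adjusted p = 0.067). The call in the tolerant bulk stood without either sensitive control array alone, and that in the sensitive bulk was lost without either sensitive salt array (adjusted p up to 0.22 and 0.1).

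LOC4323909 fell by 1.199 ± 0.16 in the tolerant bulk (limma adjusted p = 0.0017) and by 0.80 ± 0.16 in the sensitive bulk (adjusted p = 0.016), with scaled signals of 359 and 376 in the tolerant control arrays, 148 and 168 in the tolerant salt arrays, 335 and 283 in the sensitive control arrays and 181 and 169 in the sensitive salt arrays. Its control and salt arrays did not overlap in either bulk. The sensitive call was lost without either sensitive salt array (adjusted p up to 0.15). A dimmer probe set of the same gene fell by 1.19 in the tolerant bulk and had 0.05 in the sensitive bulk. LOC4323912 had 33.2 and 37.3 in the tolerant control arrays, 14.4 and 21.7 in the tolerant salt arrays, 24.5 and 25.8 in the sensitive control arrays and 4.33 and 6.59 in the sensitive salt arrays, a dim gene whose sensitive salt arrays were the lowest; its call in the sensitive bulk stood in 0 of 8 fits without 1 array (adjusted p from 0.059 to 0.16). LOC4323913 and LOC4327755 had responses of -0.08 and 0.10 in the tolerant bulk and -0.40 and 0.64 in the sensitive bulk, none called.

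Of the 5 nearest tested genes after HKT1;5, only LOC4327761 was called under median scaling, in the salt responses and in the bulk difference given above. LOC4327760 had responses of -0.68 and -0.58 (adjusted p = 0.11 and 0.14). LOC4327762, LOC9272440 and LOC9270747 had averaged differences between the bulks of 0.33, 0.29 and 0.26, with adjusted p of 0.24, 0.35 and 0.28. The other probe set of LOC9272440 had -0.25, the opposite sign, and a response of 0.52 in the sensitive bulk (adjusted p = 0.15) that passed after quantile normalization (0.71, adjusted p = 0.036). Of the 15 member genes with 2 or more tested probe sets, 8 had the same sign throughout for the averaged bulk difference. The salt response of each bulk also gave 8 such genes. Agreement was lower elsewhere: 5 genes for the control bulk difference and 6 for the bulk difference after salt. The tolerant minus the sensitive response likewise had the same sign throughout in 6.

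Of the 18 tested members with a name, 3 were called in any comparison (ACLB-1, L-CDes1 and OsGER4), where 23 of all 118 tested members were. Among genes of cell division and the cytoskeleton, CycB1-1, a mitotic cyclin, had an averaged difference of 0.82 ± 0.46 (limma adjusted p = 0.34) and the tubulin TUBB1 of 0.36 ± 0.11 (adjusted p = 0.086). TUBB1 had salt responses of -0.57 in the tolerant and -0.49 in the sensitive bulk (adjusted p = 0.059 and 0.089). The S-adenosylmethionine synthetases, which make the methyl donor also used for ethylene and polyamines, are METK3 and SAM2. METK3 had responses of 0.17 and 0.44, and the latter passed after quantile normalization (0.68, adjusted p = 0.015). SAM2 had -0.11 and -0.52 in the tolerant bulk on its 2 probe sets and -0.02 and 0.15 in the sensitive bulk.

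Among signalling genes, OsCIPK01, a protein kinase bound by calcineurin B-like calcium sensors, had -0.28 in the tolerant and 0.20 in the sensitive bulk (limma adjusted p = 0.21 and 0.34), and the second passed after quantile normalization (0.38, adjusted p = 0.032). OsPP2C02, a type 2C protein phosphatase, had 0.21 and 0.24. Of the transcription regulators, IAA20, an Aux/IAA repressor of auxin responses, had -0.19 and -0.47, SPL1, a squamosa promoter-binding-like factor, 0.01 and 0.27, and OSH6, a KNOX homeobox gene, 0.54 and 0.13. BHLH142, a bHLH factor known from the anther tapetum, was too dim to be tested. None of these passed under median scaling in any comparison.

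Among genes of the cell wall and of metabolism, OsPMT, which attaches p-coumarate to lignin precursors in grasses, had a bulk difference of 0.71 ± 0.24 in control (limma adjusted p = 0.21). GLU8, an endo-glucanase, had salt responses of -0.24 in the tolerant and -0.91 in the sensitive bulk (adjusted p = 0.69 and 0.058), and the chitinase Cht10 had -0.09 and -0.15. PPOX1, protoporphyrinogen oxidase of chlorophyll and haem synthesis, had -0.12 and -0.18. PDIL2-2, a protein disulfide isomerase-like protein, and RPS27AA, a ubiquitin fused to a ribosomal protein, had averaged bulk differences of 0.26 and 0.31, also without passing. No cation chloride cotransporter, peroxidase, serine carboxypeptidase, receptor kinase or pectin esterase could be named among the members, because the gene table gives most of them a locus number alone.

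In the parents, the genes called between the bulks went either way. Parent values are on another scale, log2(signal + 3.11), after the 14 arrays with rice signal were scaled together. Of the 4 CSR27 arrays, 1 in control and 1 in salt had no rank correlation above 0.0101 with any other array, so CSR27 has 1 usable array in each condition and its values carry no error and no test. Of the 11 members called in the averaged bulk difference, the difference between the parents (CSR27 minus MI48) had the same sign in 5 in control and in 4 in salt. Over all probe sets tested the shares were 51% and 42.4%. The median parent difference over all probe sets tested was 0.12 in control and -0.92 in salt, and over the tested members 0.33 and -1.005. A parent difference near -0.92 in salt therefore lies at the median of the whole array. LOC4326725, higher in the tolerant bulk, had parent differences of -1.77 in control and -1.11 in salt, where the MI48 arrays lay 1.38 and 2.18 apart. Its CSR27 values, 3.14 in control and 3.97 in salt, were dim. Both lay under a scaled signal of 15.4, the median over the arrays with rice signal. LOC4327914 had 0.35 and 0.24, in the direction of the bulks, where the MI48 arrays lay 0.12 and 1.82 apart. LOC4326799 had 0.57 and -0.98, where the MI48 arrays lay 1.21 and 0.78 apart. For LOC4327914 in salt and LOC4326799 in control, the CSR27 array lay between the MI48 arrays. The MI48 arrays of LOC4327761 differed from each other by 2.43 in control and 4.55 in salt, more than the parents did (1.76 and 1.37). The parent arrays with rice signal were dim (array medians of 1.5 to 4.6, apart from 86.3 on MI48 salt replicate 1, and 0.4 on the 2 arrays without it, against 14.8 to 26.1 on the bulk arrays), and the part of this in the values was not tested.

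Of the 118 tested genes, 95 were called in no comparison. No matching share over all genes is given here, so this count cannot be read as many or few. The 25 untested probe sets had a median scaled signal of 4.25 and a highest value of 37.6, and 13 genes had no tested probe set. They are not known to lack expression, since the table holds no detection calls.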

How the data were processed

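Affymetrix rice genome arrays were hybridised with biotin-labelled RNA (8 µg of total RNA per sample), per the labels' protocols. The authors deposited 1 signal intensity per probe set and array, linear and not log-transformed; GCOS 1.2 is named in the submitters' processing notes. Its settings and target scaling are not stated there.

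From these, 123 control probe sets were left out of 57381. The 8 bulk arrays were scaled to a common median of log2 signal. To be tested, a probe set had to reach a scaled signal of 17.7, the median over all probe sets and bulk arrays, on 2 or more arrays; 32977 did. Values were analysed as log2(signal + 3.86), the pseudocount being the 25th percentile, which understates the folds of dim probe sets. Limma 3.58.1 in R 4.3.3 (group means, lmFit, eBayes with an intensity trend, two-sided) gave p-values, adjusted by Benjamini-Hochberg over all tested probe sets. The fit was tested on simulated data. Arrays with no rank correlation of at least 0.1 to another were taken to hold no rice signal.

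Probe sets were named through the platform annotation and, by gene ID, the gene table: 22436 have 1 gene, all matched, 95 have several and 34727 none listed. Names are synonyms in the gene table. The text names, in each comparison, up to 10 called members by size of the difference, every member with a name, the 5 measured genes on each side of HKT1;5, and members of families fixed with the design. Other called members (LOC4323904 and LOC4325791 among them) are named so that all 23 called genes appear, a choice made after their values were seen. The members, lists and the 8-array design were chosen with earlier results of these data known. Arrays of the same replicate number were not paired in the data (correlations of replicate differences between groups from -0.000235 to 0.0258 over 6 pairs of groups). The counts were repeated with quantile normalization, without the filter, with 0.25 of the pseudocount, with a replicate block, with other sets of arrays and without each array. No background correction or slide block could be tried, as the table holds processed signals alone.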

Additional observations from a re-analysis of the deposited data

How the results depend on the processing

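The counts of called members were, for the averaged bulk difference, the bulk difference in control and in salt, the salt response of the tolerant and of the sensitive bulk and the difference of the responses, 11, 5, 2, 14, 14 and 0. Without a filter they were 6, 3, 1, 10, 8 and 0 of 161 members, in a fit of more probe sets. Of all 57258 probe sets, 861, 298, 208, 1201, 1364 and 36 were then called. With all 16 arrays, or with the 14 that hold rice signal, all 6 were 0 (limma), with 0 to 3 and 0 to 9 members at an unadjusted p under 0.05 and at most 3 probe sets called on the whole array; the median residual SD there was 0.923 and 0.582, against 0.262 with the 8 bulk arrays. With only the 4 arrays compared they were 1 in control, 8 in salt, 29 in the tolerant and 3 in the sensitive bulk. No count over all probe sets is given here for these fits or for the replicate block below. Their member counts therefore cannot be read as many or few. Leaving out 1 array gave 3 to 39, 1 to 25, 0 to 14, 4 to 29, 3 to 39 and 0 to 2. With the replicate number as a block they were 14, 6, 2, 15, 16 and 1, the last being LOC4325791 (-1.19, limma adjusted p = 0.031), and all 46 calls of single probe sets were kept; the numbers do not pair the arrays, and 1 of 11 higher averaged calls then lay after HKT1;5. Quantile normalization gave 9, 5, 3, 11, 17 and 0 and kept 37 of the 46 calls. Of all 32957 probe sets it called 1940, 722, 923, 1649, 2136 and 74. With 0.25 of the pseudocount the counts were 10, 4, 2, 14, 14 and 0, and 44 of the calls were kept. Of all 32977 probe sets, 1484, 448, 392, 1751, 2098 and 52 were then called. No call changed sign in any of these fits, and 11 of 46 were kept in all 8 fits without 1 array. The cause of these changes was not tested.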

Other observations

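LOC4326969, 78 genes after HKT1;5, was not called under median scaling and passed in 3 comparisons after quantile normalization. It had scaled signals of 105 and 90.5 in the tolerant control arrays, 96.7 and 108 in the tolerant salt arrays, 115 and 110.0 in the sensitive control arrays and 183 and 171 in the sensitive salt arrays. The sensitive salt arrays were the highest. After quantile normalization its difference between the bulks was -0.91 in salt (limma adjusted p = 0.02) and -0.59 averaged (adjusted p = 0.015), and its response in the sensitive bulk was 0.85 (adjusted p = 0.015). Under median scaling the same values were -0.77, -0.49 and 0.63 (adjusted p = 0.073, 0.056 and 0.062).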
